A study of Populus deltoides with 38 samples.

Results

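The 5 genes described here encode the cellulose synthases of the secondary cell wall in poplar, 1 copy of CesA4 and a pair of copies each of CesA7 and CesA8. They were taken by their identifiers in the expression tables, Potri.002G257900 (CesA4), Potri.006G181900 (CesA7-A), Potri.018G103900 (CesA7-B), Potri.011G069600 (CesA8-A) and Potri.004G059600 (CesA8-B), and are 5 of 39572 loci. Leaves came from Populus deltoides at 89 days. Rooted cuttings grew for 8 weeks, and 72 of them were moved to nutrient solution in which sulfate was absent (0 µM; low, L), moderate (100 µM; middle, M) or ample (1500 µM; high, H). After 12 days of this, CdCl2 was added at 50 µM (+Cd) or left out (−Cd) for 21 more days with the sulfate level kept.

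The 6 groups were therefore +CdL, −CdL, +CdM, −CdM, +CdH and −CdH, and each had 3 mRNA libraries. A library is named by its group and replicate number, so +CdL2 is replicate 2 with Cd at low sulfate. The labels do not say which plants went into a library, so the p-values reflect just the variation among these libraries, which may be technical.

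Cellulose is made at the plasma membrane by rosette complexes of cellulose synthase proteins, each a glycosyltransferase that extends a glucan chain from UDP-glucose. Complexes that build the secondary wall need CesA4, CesA7 and CesA8 together, as is known from Arabidopsis mutants in which the loss of any one gives collapsed xylem. In a leaf, thickened secondary walls are found mainly in the xylem and fibres of the veins. A lower level in whole leaves can come from fewer such cells or from less RNA per cell, and these cannot be told apart here.

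Levels are FPKM, the fragments assigned to a gene scaled to its length and to the size of the library, as the authors deposited them. Genes can be compared with each other only so far as gene lengths and read assignment were right, which was not checked. FPKM carry no library totals, and the read depth itself is unknown. A rough depth relative to −CdL1, taken from ratios of low FPKM values, was 0.607 to 1.06 with Cd and 0.847 to 1.14 without Cd. Over the 18 libraries it had r = −0.048 with the summed FPKM of the 5 genes. That sum had r = −0.114 with the library's total FPKM and −0.407 with the percentage held by its 10 highest loci. With the factor used for median-ratio scaling, which ranged from 0.987 to 1.016 between libraries, the sum had r = −0.545. The part of depth and of these other properties in the comparisons was not tested. Libraries of the same group had r values of 0.955 to 0.978 with each other over the 23166 loci averaging at least 1 FPKM. In the principal components of these loci, library −CdH1 lay apart from its group. It was at 21.6 on the component where the −CdL libraries lay at 32.5 to 38.8 and the other −CdH libraries at −4.42 and −11.0. The 5 genes summed to 105.7 FPKM in −CdH1, between the 96.9 and 119.9 FPKM of the other −CdH libraries. Library +CdL2 lay at 44.6 on the component after that, where the other +CdL libraries lay at −7.14 and 3.77, and it held the lowest value of the 18 libraries for 4 of the 5 genes. By correlation over the same loci, 7 libraries were closer to another group's mean than to the mean of the other libraries of their own. The own mean held fewer libraries than the other means, which tends to lower its r. This comparison therefore cannot show that a library resembled another group. Library +CdL1 had r = 0.9702 with its own group and 0.9703 with −CdL, and +CdL2 had 0.9693 and 0.9694. Copies of one gene resemble each other and can share reads, so the split between CesA7-A and CesA7-B, and between CesA8-A and CesA8-B, is uncertain. The identifiers could not be joined to a gene annotation here, so the leaf label was not checked against marker genes, and no sequences are shown.

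All 5 genes were detected in every library, and all 5 passed the filter of a mean of at least 1 FPKM that left 23166 loci for testing. CesA4 had the highest mean level over the 18 libraries, 29.0 FPKM, followed by CesA8-B with 24.4, CesA8-A with 18.4, CesA7-A with 15.6 and CesA7-B with 11.9 FPKM. These means lay above those of 54.6% (CesA7-B) to 78.6% (CesA4) of the loci tested. The genes are therefore of middle to upper abundance in these leaves. The spread from the lowest to the highest library was 3.03-fold for CesA8-B, 2.48-fold for CesA7-A, 1.94-fold for CesA4 and 1.75-fold for both CesA8-A and CesA7-B.

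The group with Cd at low sulfate had the lowest mean of the 6 groups for each of the 5 genes. Without +CdL2 this held for 4 of them, while CesA8-A averaged 17.2 FPKM in +CdL, against 17.1 FPKM in −CdL. Summed over the 5 genes, the level was 75.1 ± 11.6 FPKM in +CdL, against 100.7 ± 17.8 FPKM in −CdL (SD, n = 3 each), and it was 81.7 FPKM in +CdL without +CdL2. The sum was 104.8 ± 18.6 FPKM in +CdM and 106.5 ± 27.5 FPKM in −CdM. At high sulfate it was 101.2 ± 16.9 FPKM in +CdH and 107.5 ± 11.6 FPKM in −CdH. The means of the 5 groups other than +CdL thus lay close together, and for single genes the highest of them was 1.11 (CesA7-A) to 1.21 times (CesA8-A) the lowest. The mean of +CdL stood at 0.645 times the lowest of these other groups for CesA8-B, at 0.698 times for CesA7-A, 0.809 times for CesA7-B, 0.817 times for CesA4 and 0.940 times for CesA8-A.

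CesA4 lies on chromosome 2 from 24651362 to 24656525, in coordinates of the deposited files, whose genome build is not given in the sources used here. It stood at 24.7, 19.3 and 25.2 FPKM in the +CdL libraries, against 37.4, 34.0 and 24.8 FPKM in the −CdL libraries. At middle sulfate CesA4 had 35.4, 25.3 and 28.7 FPKM with Cd and 33.8, 20.1 and 34.7 FPKM without Cd. At high sulfate the libraries with Cd had 29.8, 31.3 and 23.6 FPKM and those without Cd had 31.2, 27.9 and 35.6 FPKM. The +CdL libraries were low and close to each other, but −CdL3, −CdM2 and +CdH3 fell within their range, which was apart from those of +CdM and −CdH. By group mean the order from high to low was −CdL (32.1 ± 6.51 FPKM), −CdH (31.5 ± 3.89), +CdM (29.8 ± 5.16), −CdM (29.5 ± 8.19), +CdH (28.2 ± 4.07) and +CdL (23.1 ± 3.27; SD, n = 3 each). Each step between neighbours in this order was smaller than their pooled SD except the last, 5.16 FPKM against a pooled SD of 3.69 FPKM. The pooled SD, here and for the genes below, is the spread of single libraries and not the error of a step. By limma this last step had an unadjusted p of 0.193.

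CesA7 is the subunit with the lowest transcript level per copy. CesA7-A lies on chromosome 6 from 19616148 to 19620951. It had 12.0, 8.33 and 12.3 FPKM in +CdL, against 17.3, 16.4 and 12.9 FPKM in −CdL. In +CdM it had 20.4, 14.2 and 15.6 FPKM, against 19.3, 11.7 and 20.7 FPKM in −CdM. In +CdH the values were 17.4, 17.9 and 13.5 FPKM, against 15.6, 15.6 and 19.3 FPKM in −CdH. All 3 +CdL libraries lay below all libraries of the other groups except −CdM2. The group mean was 10.9 ± 2.19 FPKM in +CdL and between 15.5 ± 2.34 (−CdL) and 17.2 ± 4.80 FPKM (−CdM) in the other groups (SD, n = 3 each). Only the step to +CdL exceeded the pooled SD of neighbours, 4.69 against 2.26 FPKM.

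CesA7-B lies on chromosome 18 from 13143595 to 13148602. Its level was 9.04, 9.05 and 10.3 FPKM in +CdL, against 13.2, 12.9 and 8.88 FPKM in −CdL. Middle sulfate gave 15.5, 11.4 and 12.7 FPKM with Cd and 12.5, 9.00 and 14.9 FPKM without Cd. High sulfate gave 12.2, 15.3 and 9.29 FPKM with Cd and 12.9, 11.1 and 13.8 FPKM without Cd. The lowest library of this gene, −CdL3, was from plants without Cd, and the +CdL range overlapped those of −CdL, −CdM and +CdH. The mean was 9.45 ± 0.699 FPKM in +CdL and ran from 11.7 ± 2.42 (−CdL) to 13.2 ± 2.11 FPKM (+CdM) elsewhere (SD, n = 3 each). The step from −CdL to +CdL was 2.22 FPKM with a pooled SD of 1.78 FPKM, and the other steps were within the pooled SD. By limma the step to +CdL had an unadjusted p of 0.195.

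CesA8-A lies on chromosome 11 from 6493073 to 6500011. It had 17.6, 13.7 and 16.9 FPKM in +CdL, against 18.6, 18.7 and 13.9 FPKM in −CdL. Its levels were 23.9, 18.9 and 19.3 FPKM in +CdM and 19.4, 14.9 and 22.5 FPKM in −CdM. They were 19.8, 19.9 and 16.3 FPKM in +CdH and 18.7, 17.9 and 20.6 FPKM in −CdH. CesA8-A differed least between +CdL and −CdL, with means of 16 ± 2.1 and 17.1 ± 2.76 FPKM (SD, n = 3 each). Its highest mean was in +CdM, 20.7 ± 2.77 FPKM, and every step between neighbouring groups, the one to +CdL included, was within the pooled SD.

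CesA8-B lies on chromosome 4 from 4781273 to 4789617, with 2 start sites listed. It stood at 17, 11.5 and 18.6 FPKM in +CdL, against 25.4, 27.9 and 19.7 FPKM in −CdL. It had 30.9, 22.2 and 19.8 FPKM in +CdM, against 31.6, 19.6 and 34.8 FPKM in −CdM. In +CdH its level was 27.1, 30.7 and 19.6 FPKM, against 27.4, 24.4 and 30.6 FPKM in −CdH. The 3 +CdL libraries were the lowest of the 18 for CesA8-B, a pattern that none of the other 4 genes showed in full. The means were 15.7 ± 3.73 FPKM in +CdL and between 24.3 ± 5.82 (+CdM) and 28.7 ± 8.00 FPKM (−CdM) in the other groups (SD, n = 3 each), and only the step of 8.63 FPKM to +CdL exceeded the pooled SD of 4.89 FPKM.

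**Figure D1:**
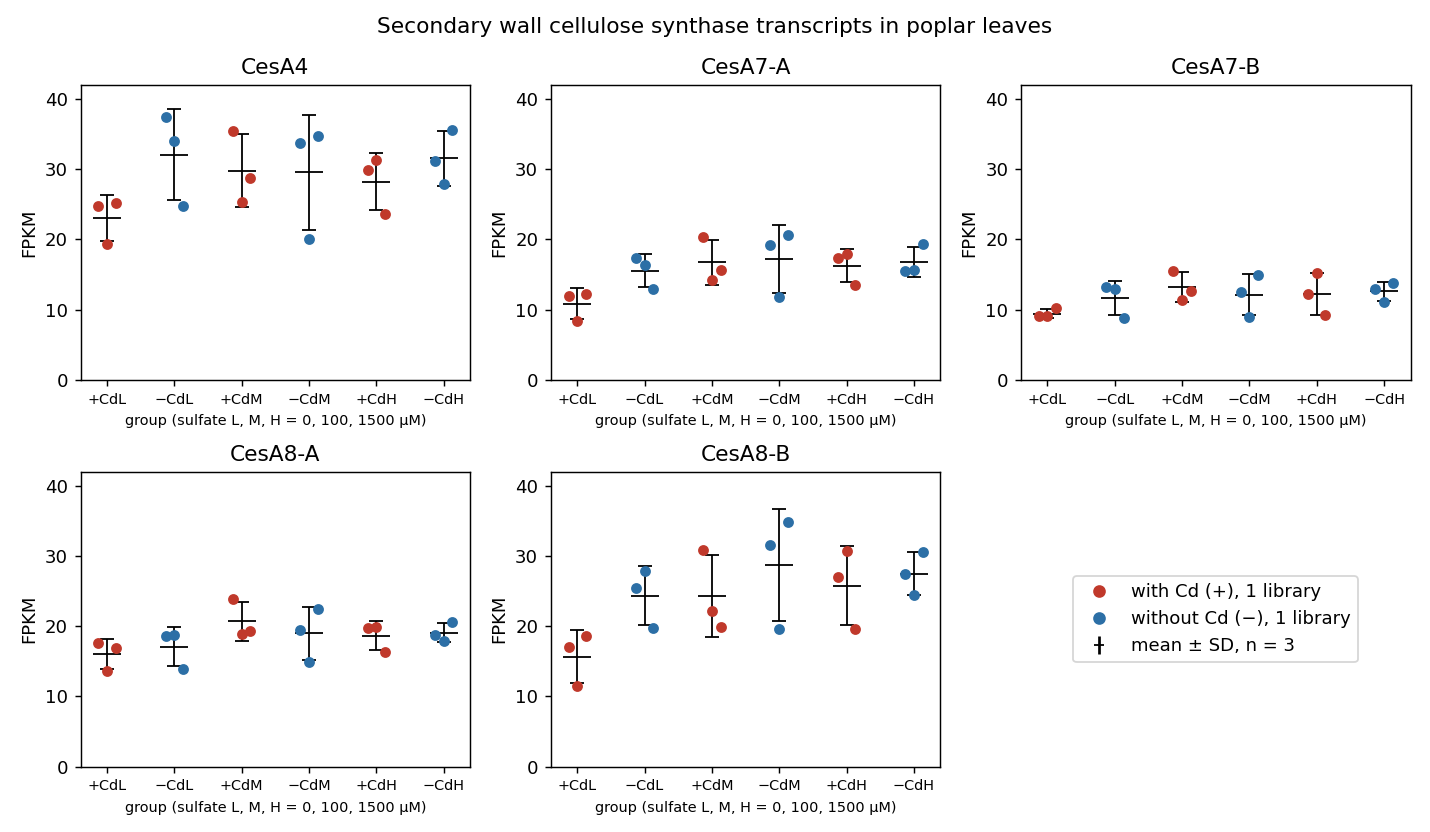
Level of each of the 5 genes in FPKM (vertical axis, from 0) in the 6 groups (horizontal axis), with 1 point per library, red with Cd and blue without Cd, and the mean ± SD of 3 libraries in black. The +CdL mean is the lowest of the 6 in every panel, from 9.45 FPKM for CesA7-B to 23.1 FPKM for CesA4, and within groups the points spread widely, as in −CdM.

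The comparison with and without Cd asked how leaf transcripts differed under the metal at each sulfate supply. At low sulfate, where 0.717% of the loci tested passed, 0 of the 5 genes were called at an adjusted p under 0.05 by limma (3 at an unadjusted p under 0.05, as were 13.3% of loci). The 3 became 0 without −CdL1, −CdL2 or +CdL2. All 5 point estimates were below 0. CesA8-B was at −0.61 ± 0.24 on the scale of log2(FPKM + 1), +Cd minus −Cd (SE; limma, adjusted p = 0.265), CesA7-A at −0.49 ± 0.20 (limma, adjusted p = 0.309) and CesA4 at −0.45 ± 0.21 (limma, adjusted p = 0.364). CesA7-B was at −0.26 ± 0.19 and CesA8-A at −0.08 ± 0.15 (limma, adjusted p = 0.613 and 0.877). The 95% intervals ran from −1.12 to −0.11 for CesA8-B and from −0.40 to 0.24 for CesA8-A. For CesA7-A and CesA8-B all 3 libraries with Cd lay below all 3 without Cd, as did those of 11.2% of loci.

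At middle sulfate Cd left no gene called, where 20.8% of loci passed, and also none at an unadjusted p under 0.05 by limma, where 33.9% did. The estimates ran from −0.21 (CesA8-B, 95% interval −0.72 to 0.29) to 0.13 (CesA8-A, −0.19 to 0.46). At high sulfate 0 genes were called, where 13.4% of loci passed, again with none at an unadjusted p under 0.05 by limma (28.6% of loci), and the estimates ran from −0.16 (CesA4) to −0.03 (CesA8-A). These intervals still allow changes of up to 0.72 in size on the log2 scale at middle sulfate. Averaged over the 3 sulfate levels, 28.1% of loci passed and 0 of the 5 genes did. CesA8-B was the 1 gene at an unadjusted p under 0.05 (39.9% of loci), at −0.31 ± 0.14 (SE; limma, adjusted p = 0.101), and it passed without −CdM2 (−0.39, limma, adjusted p = 0.031). Its unadjusted limma p was 0.0600 with quantile normalization, and it also exceeded 0.05 when any 1 of 10 libraries was left out (−CdL1, −CdL2, −CdM1, −CdM3, −CdH1, −CdH3, +CdL2, +CdM2, +CdM3 or +CdH3). CesA8-A was at 0.01. The Cd effect at low sulfate minus that at middle sulfate was below 0 for all 5 genes, from −0.49 (CesA4) to −0.21 (CesA8-A), with 0 called (6.28% of loci passed) and 0 at an unadjusted p under 0.05 by limma (22.8% of loci; 1 without −CdL3). For the Cd effect at high minus middle sulfate no locus passed, and the 5 genes lay between −0.20 and 0.11, with 0 at an unadjusted p under 0.05 by limma (8.24% of loci). The groups with and without Cd overlapped for all 5 genes at middle and at high sulfate, where 36.9% and 31.3% of loci had groups apart.

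Sulfate supply was compared at each Cd level. With Cd, the 5 genes stood lower at low than at middle sulfate in every library. That is, each of the 5 had all 3 +CdL values below all 3 +CdM values, an order found for 17.6% of loci. For CesA4 the groups were barely apart, with 25.18 FPKM as the highest +CdL value and 25.29 FPKM as the lowest +CdM value. The median of the 5 changes was −0.44, against 0 over all loci tested. The 5 genes share libraries and correlated at r = 0.823 to 0.961, so their 5 orders and changes are not independent observations. CesA8-B was at −0.60 ± 0.24 (SE; limma, adjusted p = 0.0893), CesA7-A at −0.58 ± 0.20 (limma, adjusted p = 0.0594) and CesA7-B at −0.44 ± 0.19 (limma, adjusted p = 0.131). CesA4 was at −0.35 ± 0.21 and CesA8-A at −0.35 ± 0.15 (limma, adjusted p = 0.254 and 0.127). None was called, where 17.7% of loci were, and 4 of 5 had an unadjusted p under 0.05 by limma, as did 32.3% of loci. The 4 became 0 without +CdL2, where the values were −0.42 (CesA7-A) to −0.23 (CesA4), and also 0 without +CdM1. With library −CdM2 left out, CesA7-A passed (−0.58, limma, adjusted p = 0.0283). That library is not part of this comparison, so only the estimate of spread shared over all groups and the adjustment were altered.

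Low sulfate with Cd was also set against high sulfate with Cd, a comparison that shares the 3 +CdL libraries with those above. CesA8-B was at −0.69 ± 0.24 (SE; limma, adjusted p = 0.0517) and CesA7-A at −0.55 ± 0.20 (limma, adjusted p = 0.0667), and both had all +CdL libraries below all +CdH libraries, as did 16.6% of loci. CesA7-B was at −0.32, CesA4 at −0.28 and CesA8-A at −0.21. None of the 5 was called, where 20.3% of loci were, and 2 had an unadjusted p under 0.05 by limma, where 33.9% of loci did. The 2 became 0 without +CdL2, which put CesA8-B at −0.49 and CesA7-A at −0.39, and 0 without +CdH2. CesA8-B passed when −CdM2, −CdM3, +CdM1, +CdL3 or +CdH3 was left out, with values of −0.69 to −0.86. CesA7-A passed without −CdM2 (−0.55) or +CdH3 (−0.67). The middle-sulfate libraries are not part of this comparison, so leaving them out kept the changes at −0.69 and −0.55. It altered only the estimate of spread shared over all groups and the adjustment.

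Without Cd, the sulfate levels gave no call and no unadjusted p under 0.05 for any of the 5 genes by limma. Low against middle sulfate gave estimates from −0.20 (CesA8-B) to 0.13 (CesA4), where 14.5% of loci passed, 28.4% before adjustment. Low against high sulfate gave −0.18 (CesA8-B) to 0.01 (CesA4), where 3.58% passed, 19% before adjustment. High against middle sulfate gave −0.03 (CesA8-B) to 0.12 (CesA4) without Cd, where 0.0820% passed and 15.4% before adjustment. With Cd it gave −0.14 (CesA8-A) to 0.08 (CesA8-B), where 0% of loci passed and 8.31% before adjustment, and again 0 of the 5 genes by limma at either threshold. In none of these 4 comparisons did a gene have groups that were apart, where 36.1%, 26.4%, 20.3% and 13.2% of loci did.

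**Figure D2:**
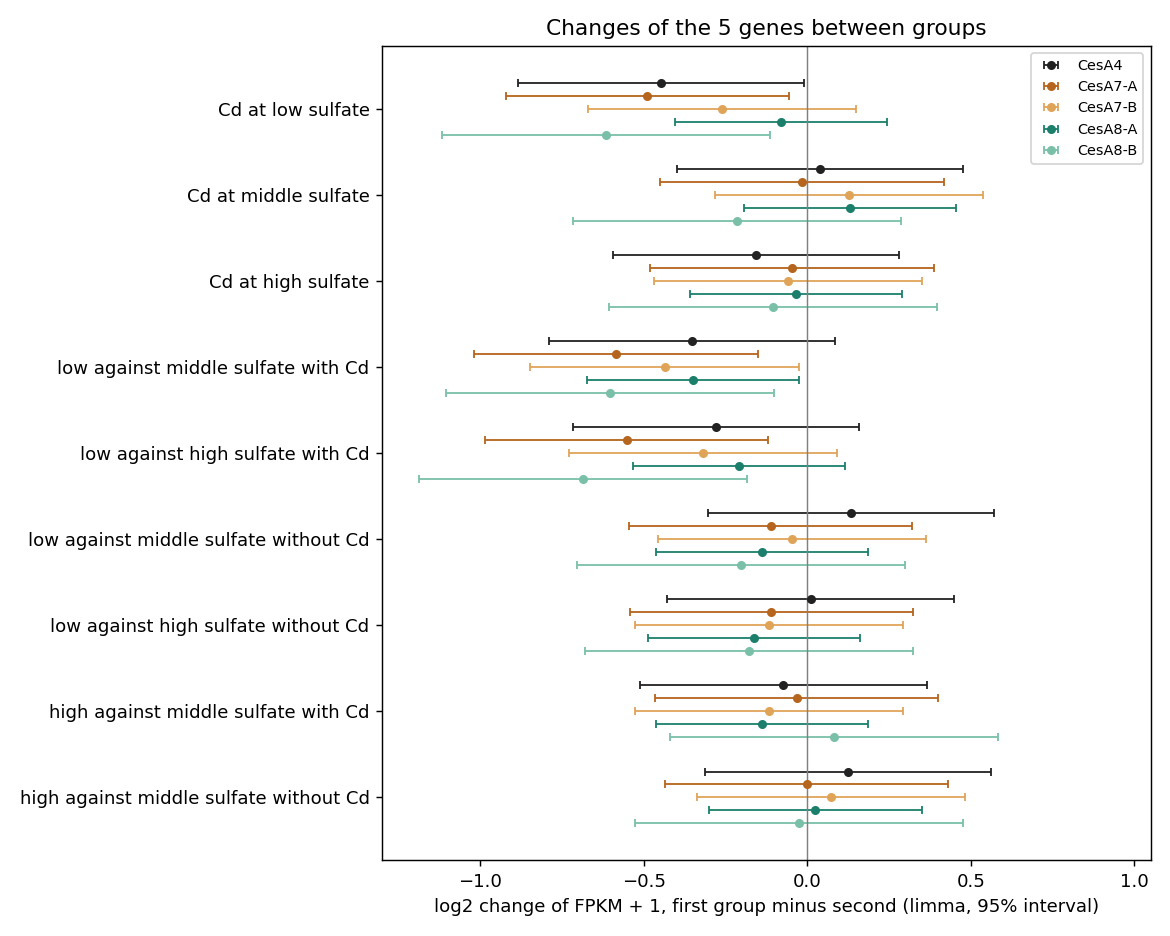
Change of each gene on the scale of log2(FPKM + 1) (horizontal axis) in 9 comparisons (rows), first-named minus second-named group, with its 95% interval from limma. Values in the rows that involve +CdL reach −0.69 (CesA8-B, low against high sulfate with Cd). Some intervals in these rows cross 0, as for CesA8-A with Cd at low sulfate, and those of the other rows all do.

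The 5 genes moved together from library to library inside the groups. After each group's mean was subtracted, all 5 deviated to the same side in 16 of 18 libraries, and the exceptions were +CdL1 and −CdH1. Library −CdM2 was lowest in its group for every gene, by −0.49 to −0.31 on the log2 scale, and −CdL3 was by −0.34 to −0.24. In +CdM1 the deviations were 0.21 to 0.36, and in −CdM3 they were 0.25 to 0.31. The sum of the 5 genes was 75.4 FPKM in −CdM2, against 116.6 and 127.6 FPKM in the other libraries of that group. Library −CdM2 also had the largest total of FPKM over all loci, 976794, where the others had 738655 to 894933, and the part of that total in the low values was not tested.

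As a description over the 18 libraries, which the 5 genes share, the 10 pairs of genes correlated at r = 0.823 (CesA8-A and CesA8-B) to 0.961 (CesA7-A and CesA8-B), with Spearman's rho from 0.792 to 0.934. After subtraction of group means the r values were 0.853 to 0.974. The CesA7 copies had r = 0.876 over all libraries and the lowest r within groups, 0.853, while the CesA8 copies had the lowest r over all libraries and 0.947 within groups. Groups accounted for 30.9% (CesA7-B) to 53.3% (CesA8-B) of each gene's variance, against a median of 55.2% over the loci tested. The pooled SD within groups was 0.20 (CesA8-A) to 0.31 (CesA8-B) on the log2 scale, above the median of 0.18 over those loci. On this scale, which understates the spread of low loci, these 5 genes thus varied more between replicates than the middle locus did. They were not compared with loci of similar level.

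**Figure D3:**
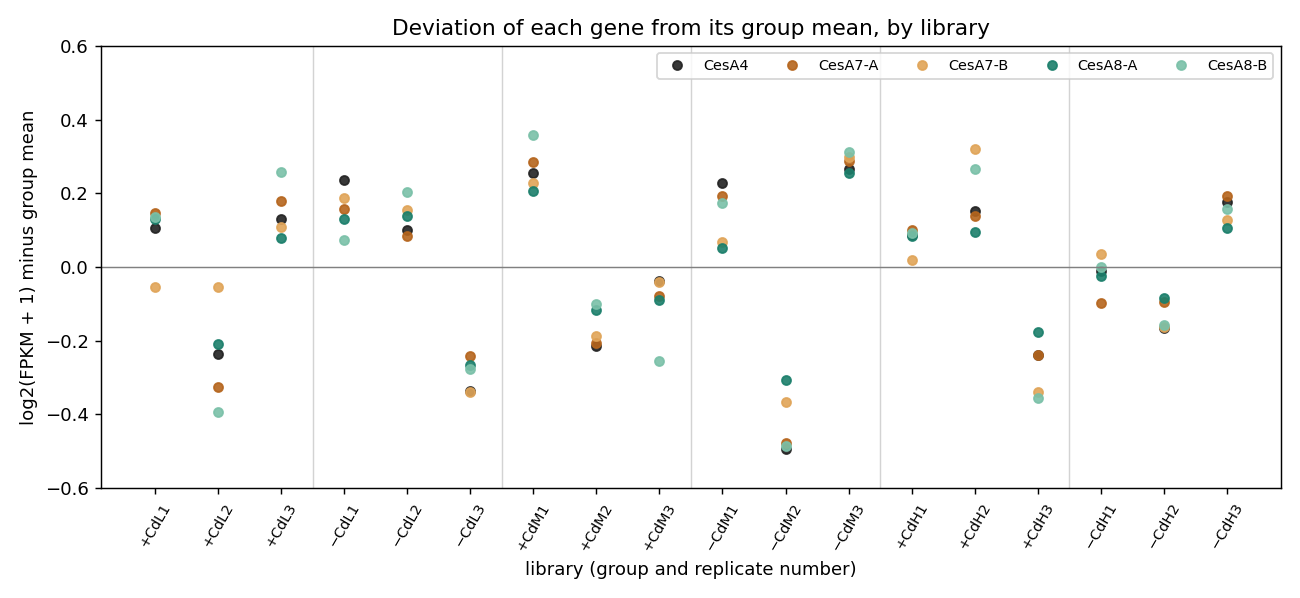
Deviation of each gene from its group mean on the scale of log2(FPKM + 1) (vertical axis) in each of the 18 libraries (horizontal axis), with 1 point per gene. Points of a library lie on one side of 0 in 16 libraries, from −0.49 in −CdM2 to 0.36 in +CdM1 at the extremes.

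Ratios between the genes inside a library do not depend on how libraries were scaled, and they were examined after the levels had been seen. Of the summed FPKM, CesA8 took 39.3% to 45.8%, CesA4 26.6% to 33.4% and CesA7 26.2% to 29.5% across libraries, with both copies counted together. CesA8 over CesA7 was 1.56 ± 0.07 (SD, n = 18), and none of its 4 comparisons passed (exact permutation test, two-sided, p = 0.314 to 0.89). In all, 16 comparisons of 4 ratios were tested, with libraries exchanged only within the same level of the other treatment, and p-values were adjusted over the 16.

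CesA4 was higher relative to CesA7 at low sulfate than at middle or high sulfate, with and without Cd. The ratio of CesA4 to the summed CesA7 copies was 1.14 ± 0.04 in +CdL and 1.17 ± 0.04 in −CdL. It was 0.996 ± 0.015 in +CdM and 1.00 ± 0.05 in −CdM, and 0.995 ± 0.047 in +CdH and 1.07 ± 0.03 in −CdH (SD, n = 3 each). The 6 low-sulfate libraries had ratios of 1.11 to 1.22, all above the 0.968 to 1.06 at middle and the 0.942 to 1.09 at high sulfate. How often ratios between other loci separate or pass in this way was not tested. Low sulfate exceeded middle sulfate 1.16-fold (0.21 on the log2 scale, with a pooled SD within groups of 0.05; exact permutation test, p = 0.005, adjusted p = 0.0267, higher in 6 of 6). Against high sulfate the ratio was 1.12-fold (0.16; exact permutation test, p = 0.005, adjusted p = 0.0267, higher in 6 of 6), and 0.005 is the smallest p that 400 arrangements allow. High against middle sulfate differed by 0.05 (exact permutation test, p = 0.185), and plants with Cd against those without by −0.05 (exact permutation test, p = 0.0508, adjusted p = 0.176). With any 1 library left out, the exact permutation p of both low-sulfate differences was 0.005 to 0.01.

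The copies of CesA8 differed in balance with Cd. CesA8-B over CesA8-A was 0.968, 0.840 and 1.10 in +CdL, against 1.37, 1.49 and 1.42 in −CdL. At middle sulfate it was 1.29, 1.18 and 1.03 with Cd and 1.63, 1.31 and 1.55 without Cd. At high sulfate it was 1.37, 1.54 and 1.20 with Cd and 1.46, 1.36 and 1.49 without Cd. The groups were apart at low and middle sulfate and overlapped at high sulfate, and whether the difference depended on sulfate was not tested. The share of ratios between other loci that separate or pass in this way was not tested either. Averaged over sulfate, the ratio with Cd was 0.794 times that without (−0.33 on the log2 scale, with a pooled SD within groups of 0.15; exact permutation test over 8000 arrangements, p = 0.00325, adjusted p = 0.0267). In 8 of 9 libraries with Cd it lay below the mean without Cd, +CdH2 being the exception. Leaving out 1 library gave −0.36 to −0.30, with an exact permutation p of 0.00075 to 0.00625.

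In the +CdL libraries CesA8-B over CesA8-A was thus 0.840 to 1.10, with values below 1 in +CdL1 and +CdL2. CesA8-B was the more abundant copy in every other library, including those of +CdM (1.03 to 1.29) and +CdH (1.20 to 1.54). Reads shared between the copies could alter this ratio. Libraries with Cd had 10758 to 11417 loci listed at 0, against 10542 to 11025 in libraries without Cd, and the part of this in the ratio was not tested. For the CesA7 copies, CesA7-A over CesA7-B with Cd against without differed by −0.13 (exact permutation test, p = 0.0998, adjusted p = 0.229), and its value of 0.921 in +CdL2 was the only one below 1 among the 18 libraries. Low sulfate gave CesA8-B over CesA8-A values lower than high sulfate by −0.26 (exact permutation test, p = 0.055, adjusted p = 0.176) and than middle sulfate by −0.17 (exact permutation test, p = 0.1, adjusted p = 0.229).

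**Figure D4:**
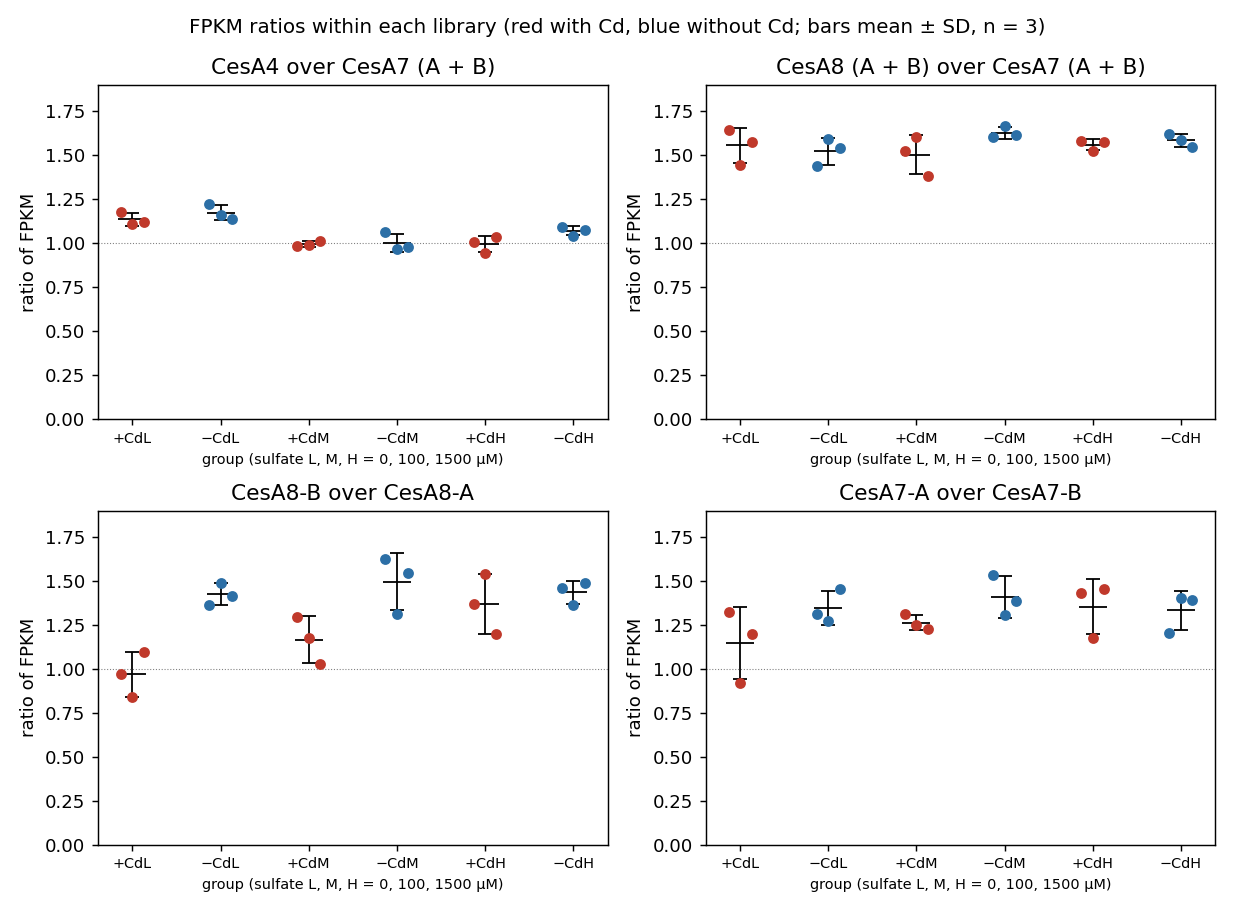
Ratio of FPKM between subunits or copies in each library (vertical axis, from 0) for the 6 groups (horizontal axis), red with Cd and blue without Cd, with mean ± SD of 3 libraries in black. CesA4 over CesA7 is 1.11 to 1.22 at low sulfate and at most 1.09 elsewhere, and CesA8-B over CesA8-A has its lowest value, 0.840, in +CdL2.

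Of 21645 loci compared, those whose levels followed the mean standardized profile of the 5 genes most closely over the 18 libraries were named by the size of r. Potri.008G094700 (chromosome 8, 5935853 to 5939165) had r = 0.945 and rho = 0.917 and a mean level of 5.57 FPKM. Next came Potri.001G416800 (chromosome 1, 44144817 to 44148920) with r = 0.908 and 19.5 FPKM. Potri.002G111900 (chromosome 2, 8352530 to 8355119) had r = 0.906 and 91.4 FPKM, more than any of the 5 cellulose synthases. The remaining pair were Potri.006G129200 (chromosome 6, 10546377 to 10547971) with r = 0.906 and 38.1 FPKM, and Potri.001G055100 (chromosome 1, 4173767 to 4178501) with r = 0.904 and 4.81 FPKM. The files do not pair these identifiers with names. Over all loci compared, which share the same libraries, r ran from −0.530 at the 5th percentile to 0.520 at the 95th, and 6 loci exceeded 0.9.

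Each of these 5 loci also had its lowest group mean in +CdL. Potri.008G094700 was at 3.56 ± 0.599 FPKM in +CdL, against 5.33 ± 1.44 in −CdL and 6.62 ± 1.43 in +CdM (SD, n = 3 each). Potri.002G111900 was at 66.1 ± 10.1 FPKM in +CdL, against 98.0 ± 14.4 in −CdL and 94.2 ± 14.2 in +CdM. Since they were picked for likeness, this is a description. The same holds for their r values after subtraction of group means, 0.917 to 0.968, and without −CdH1, 0.905 to 0.950, which come from the libraries used to pick them.

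**Figure D5:**
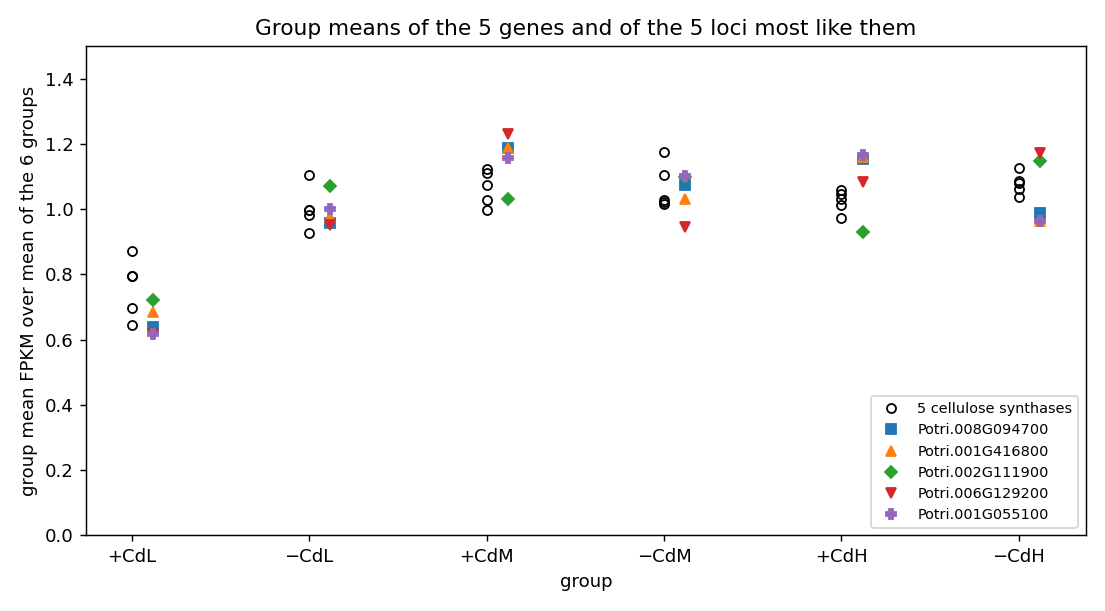
Group mean FPKM divided by the mean of the 6 group means (vertical axis, from 0) in the 6 groups (horizontal axis), with open circles for the 5 cellulose synthases and filled symbols for the 5 loci most like them. All 10 lie lowest in +CdL, where the loci have means of 2.96 (Potri.001G055100) to 66.1 FPKM (Potri.002G111900).

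Degradome sequencing, which reads the cut ends of transcripts, was done on 1 pool of 9 RNAs with Cd and 1 without. The deposited tables list sites matched to small RNAs, with 5250 entries on 855 genes in each pool. Of these, 0 named any of the 5 genes.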

How the data were processed

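For mRNA the authors deposited FPKM per locus; per the submitters' processing notes reads were aligned with TopHat2 2.1.1. Genome build, annotation and FPKM program: not stated in the sources. The degradome counts were used as deposited; small RNA tables were not used. The members and lists were chosen with earlier results of these data known. Of 39512 identifiers 0 matched the reference gene table, so other wall genes and cell type markers were not analysed here. Loci averaging at least 1 FPKM (23166) were fitted as log2(FPKM + 1) with limma 3.58.1 (R 4.3.3; trend, robust) with 6 group means and 12 residual degrees of freedom. This scale understates changes of low loci. Tests were two-sided, and p-values were adjusted by Benjamini-Hochberg over all loci in each of 12 contrasts, with calls at 0.05. Named loci were the 5 with the highest Pearson r to the mean standardized profile of the 5 genes. Ratio tests (Python 3.11.15, scipy 1.17.1) were added after the data were seen. Alternatives were a pseudocount of 0.1, no filter, quantile normalization, median-ratio scaling, a replicate block, limma without trend and robust options, and each library left out. The limma fit was tested on simulated data.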

Additional observations from a re-analysis of the deposited data

How the results depend on the processing

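No gene of the 5 was called under the 6 alternatives, where 0 of 360 values passed and the smallest adjusted p was 0.0506 (limma), and 7 values changed sign. With quantile normalization CesA7-A was at 0.0462 for Cd at middle sulfate, CesA7-B at 0.014 for low against middle sulfate without Cd, and CesA7-A at 0.0489 and CesA8-B at 0.0530 for high against middle sulfate without Cd. For CesA7-A that last value was 0.000497 with a pseudocount of 0.1 and 0.0059 with median-ratio scaling. Median-ratio scaling put CesA4 at −0.0035 for low against high sulfate without Cd. The cause was not tested.

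No pairing by replicate number was seen: over 45 same-numbered pairs the correlation of deviations had a median of −0.024, and 7 exceeded 0.1. These pairs ran from −0.288 to 0.268. Pairs with different numbers had a median of 0.021 and ran from −0.370 to 0.304. This does not show that equal numbers shared nothing. With the replicate block 0 members were called (smallest adjusted p 0.0507), and 3842 loci were called for low against middle sulfate with Cd, against 4099 without the block.

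With each of the 18 libraries left out in turn, 9 of 1080 values passed and 60 changed sign. The number of the 5 genes called was then 0 to 1 for Cd averaged over sulfate (1 without −CdM2, CesA8-B), 0 to 1 for low against middle sulfate with Cd, and 0 to 2 for low against high sulfate with Cd (1 without −CdM3, +CdL3 or +CdM1, and 2 without −CdM2 or +CdH3). The median of the 5 changes for Cd at middle sulfate ran from −0.21 to 0.17. Loci called for low against middle sulfate with Cd ranged from 2282 (without +CdL1) to 4398, and for Cd at low sulfate from 60 (without −CdL2) to 217.

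Ranges that cross 0 with a library left out were as follows. Averaged over sulfate, Cd gave −0.045 to 0.048 for CesA8-A, and at low sulfate −0.21 to 0.025. Cd at middle sulfate gave −0.21 to 0.17 for CesA4, −0.25 to 0.13 for CesA7-A, −0.0552 to 0.28 for CesA7-B and −0.022 to 0.26 for CesA8-A. Cd at high sulfate gave −0.12 to 0.0733 for CesA7-A, −0.22 to 0.11 for CesA7-B, −0.0805 to 0.0553 for CesA8-A and −0.24 to 0.0719 for CesA8-B. Low against middle sulfate without Cd gave −0.11 to 0.30 for CesA4, −0.35 to 0.032 for CesA7-A and −0.23 to 0.12 for CesA7-B. Low against high sulfate without Cd gave −0.11 to 0.18 for CesA4, −0.19 to 0.011 for CesA7-A and −0.21 to 0.0521 for CesA7-B. High against middle sulfate without Cd gave −0.12 to 0.26 for CesA4, −0.24 to 0.14 for CesA7-A, −0.11 to 0.22 for CesA7-B, −0.13 to 0.15 for CesA8-A and −0.27 to 0.13 for CesA8-B. With Cd it gave −0.18 to 0.0548 for CesA4, −0.14 to 0.11 for CesA7-A, −0.28 to 0.0527 for CesA7-B and −0.0501 to 0.26 for CesA8-B. The Cd effect at high minus middle sulfate gave −0.33 to 0.050 for CesA4, −0.17 to 0.21 for CesA7-A and −0.048 to 0.35 for CesA8-B.

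Among the ratios, with a library left out, CesA8-B over CesA8-A gave −0.21 to −0.12 for low against middle and −0.30 to −0.21 for low against high sulfate, and some of these passed at an unadjusted exact permutation p under 0.05. With middle and high sulfate pooled, its value at low sulfate was −0.21 (exact permutation p = 0.0271). CesA7-A over CesA7-B gave −0.16 to −0.0776 with Cd (exact permutation p = 0.045 without −CdH1 and 0.0473 without +CdL1) and −0.021 to 0.0571 for high against middle sulfate. CesA4 over CesA7 gave −0.0641 to −0.0405 with Cd and 0.033 to 0.0684 for high against middle sulfate, some also passing. CesA8 over CesA7 gave −0.0529 to 0.00295 for low against middle and −0.021 to 0.033 for high against middle sulfate.

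With 3 libraries a group, 95% intervals reached up to 0.50 on either side of a change between groups. For a difference of Cd effects they reached up to 0.71, and the widest of both kinds were those of CesA8-B. With all libraries kept, even the largest change, −0.69 for CesA8-B at low against high sulfate with Cd, was not called. The absence of a call therefore does not show that a gene was unchanged.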
